A study of Bos grunniens with 9 samples.

Results

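Ovaries of pregnant yaks (Bos grunniens) were compared with ovaries of yaks at both sampled non-pregnant stages by ribosome profiling, which sequences the short mRNA stretches that ribosomes protect from RNase. The 3 pregnancy libraries, of 9 libraries in all, were set against 3 estrus and 3 anestrus libraries together, 6 non-pregnant libraries, to find genes at which pregnancy stood apart from both stages. Membership came from the stage codes in the sample titles and from no measured value.

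The animals were adults aged 6 years. Pregnancy was sampled in December, estrus in August and anestrus in April, so stage and season cannot be told apart. The labels name 3 biological replicates of an ovary called ipsilateral, and do not give the side it refers to, the month of gestation or whether a corpus luteum was present. They also speak of 3 yaks without saying whether per stage or in all, so replicates may not be separate animals. The p-values therefore measure the spread between these samples.

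After ovulation the emptied follicle is rebuilt into the corpus luteum, whose cells come from granulosa and theca cells and secrete progesterone, the hormone that maintains pregnancy in cattle and related bovids. Progesterone is made from cholesterol: STAR carries cholesterol into mitochondria, CYP11A1 cleaves its side chain to give pregnenolone, and HSD3B1 turns pregnenolone into progesterone. In cattle the conceptus also secretes interferon tau, which prevents luteal regression and induces antiviral genes in maternal tissues in early pregnancy.

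Sequencing depth was uneven. Total counts were 9.08, 4.97 and 1.47 M (1e6) in pregnancy replicates 1 to 3, against 6.08 to 28.94 M in the 6 non-pregnant libraries, with means of 5.17 ± 3.81 and 13.3 ± 8.48 M (SD, n = 3 and n = 6, exact 2-sided permutation p = 0.0952 on log2 depth over 84 regroupings). On the scaled CPM used below (counts per 1e6 counts of the library), 3 counts equalled 1.79 CPM in pregnancy replicate 3 and 0.119 to 0.506 CPM in the non-pregnant libraries, and low genes in that replicate are the least certain values below. Pregnancy libraries were not more alike than others: the median correlation of log2 CPM across genes was 0.887 over the 3 pregnancy pairs and 0.935 over the 15 non-pregnant pairs, and pregnancy replicate 3 lay farthest from the rest on the main axis of variation (30.3% of the variance). Granulosa, theca and steroidogenic markers were detected in every library, while the oocyte markers GDF9, BMP15 and NOBOX had 22, 3 and 14 counts over all 9 libraries. Whole ovary was used, so fewer cells of a type and less RNA per cell cannot be told apart, nor can mRNA amount and translation.

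Of 13936 genes tested, 257 (1.84%) were higher in each of the 3 pregnancy libraries than in each of the 6 non-pregnant ones, and 278 (1.99%) were lower in each, together 535 (3.84%). Levels are CPM scaled by TMM (trimmed mean of M-values), and genes of either kind are called outside the non-pregnant range. For a gene that does not differ between stages, 1 of 84 regroupings of the libraries would give each kind. How many of the 535 genes this accounts for was not estimated. The median log2 fold change of pregnancy over non-pregnant was 0.64 in the 257 and -0.58 in the 278. Few differences were large: 58 of the higher and 60 of the lower genes differed more than 2-fold, and 17 and 19 more than 4-fold. Among the 278 lower genes, 27 had 0 counts in pregnancy replicate 3, the shallowest library. The 2 counts depend on scaling, being 468 and 130 by library size alone, which moves the median log2 fold change of all genes to 0.12, against 0.01 with TMM.

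None of these genes passed the test across all genes. The quasi-likelihood F test of edgeR called 0 of 13936 genes (0%) at a Benjamini-Hochberg adjusted p under 0.05 (smallest adjusted p = 0.137). Unadjusted p was under 0.05 for 543 genes higher in pregnancy (3.9%) and 439 lower (3.15%). Against estrus alone 0 genes (0%) and against anestrus alone 0 genes (0%) were called, with 7.43% and 6.82% of genes at an unadjusted p under 0.05. Both of these comparisons use the same 3 pregnancy libraries, and 108 genes (0.775%) were higher and 118 (0.847%) lower at an unadjusted p under 0.05 in both. DESeq2 called 15 genes higher (0.108%) and 13 lower (0.0937%), 28 in all (0.202%), of which 27 lay outside the non-pregnant range, and limma-voom called 0 (smallest adjusted p = 0.108). Calls made by DESeq2 alone are given as such below.

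**Figure D1:**
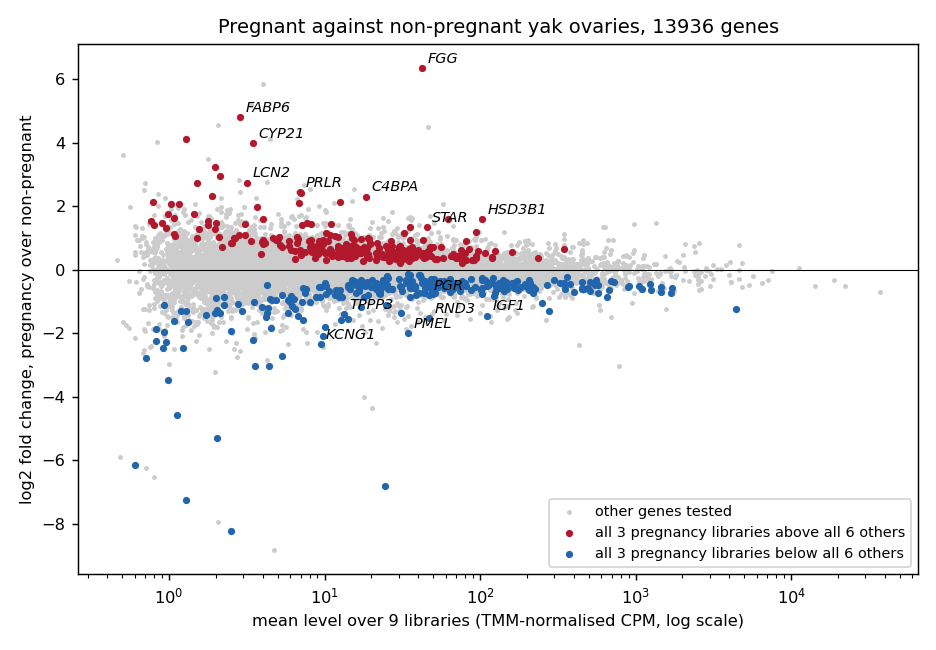
Log2 fold change of pregnancy over non-pregnant ovaries (vertical axis) against mean level over the 9 libraries in TMM-normalised CPM (horizontal axis, log scale) for 13936 genes, each a point. The 257 genes with all 3 pregnancy libraries above all 6 others are red and the 278 with all 3 below are blue; FGG, at 6.35, has the highest fold change in red, and most coloured points lie within 1 log2 unit of 0.

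Genes of progesterone synthesis had higher mean levels in pregnant ovaries, and HSD3B1, the last step to progesterone, and STAR did so in every library. HSD3B1 (ENSBTAG00000006769) had 161, 283 and 108 CPM in pregnancy replicates 1 to 3, against 76.1, 94.5 and 42.7 CPM in estrus and 34.6, 51.3 and 72.5 CPM in anestrus. All 3 pregnancy libraries lay above all 6 others, and the lowest of them was replicate 3. The log2 fold change was 1.59 ± 0.34 (SE; edgeR adjusted p = 0.637; DESeq2 adjusted p = 0.0130), with 1.38 ± 0.41 against estrus and 1.81 ± 0.42 against anestrus.

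STAR (ENSBTAG00000001608), which delivers cholesterol to the mitochondrion, stood at 58.4, 106 and 64.4 CPM in pregnancy, against 24.3, 51.5 and 17.5 CPM in estrus and 14.8, 57.9 and 14.3 CPM in anestrus. The groups did not overlap, but only narrowly, since anestrus replicate 2 reached 57.9 CPM beside 58.4 CPM in pregnancy replicate 1. Its log2 fold change was 1.34 ± 0.47 (edgeR adjusted p = 0.693). CYP11A1 (ENSBTAG00000006934), which makes pregnenolone, had 593, 686 and 261 CPM in pregnancy and 114 to 441 CPM (median 251) in the non-pregnant libraries. Replicates 1 and 2 were above every non-pregnant library while replicate 3 lay inside their range, and the log2 fold change was 0.97 ± 0.40 (edgeR adjusted p = 0.693). NR5A1, the transcription factor that drives steroid enzyme genes, had 150.0, 202 and 100.2 CPM in pregnancy, against 48.9 to 126 CPM (median 93.1) in non-pregnant ovaries, again with replicate 3 inside the range (0.73 ± 0.30).

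Compared per length, in the deposited FPKM (fragment counts scaled to gene length and library size), pregnant ovaries held more CYP17A1 and INSL3 than enzymes of progesterone synthesis. Mean FPKM in pregnancy was 2336 ± 2044 for INSL3, the theca hormone, 1069 ± 742 for CYP17A1, the enzyme that turns progestins into androgens, 334 ± 129 for CYP11A1, 165 ± 70.6 for HSD3B1 and 89.9 ± 25.7 for STAR (SD, n = 3 each). The means in non-pregnant ovaries had the same order: INSL3 1016 ± 901, CYP17A1 408 ± 319, CYP11A1 165 ± 80.4, HSD3B1 52.6 ± 20 and STAR 32 ± 18.9 (mean FPKM ± SD, n = 6 each). This order need not hold in each library. Spread was wide for CYP17A1: 1971, 2608 and 322 CPM in pregnancy, against 1041, 1279.7 and 285 CPM in estrus and 292, 24.7 and 915 CPM in anestrus. Replicate 3 fell within the non-pregnant values, and the log2 fold change of 1.45 ± 0.86 had an edgeR adjusted p of 0.712. INSL3 likewise overlapped, with 501, 2029 and 411 CPM in pregnancy and 61.4 to 948 CPM (median 338) in non-pregnant ovaries (1.35 ± 0.74, edgeR adjusted p = 0.703), and its log2 fold change was 0.25 without pregnancy replicate 2. Aromatase, CYP19A1, which makes estradiol, was at 20.9, 27.8 and 9.54 CPM in pregnancy and 0.711 to 168 CPM (median 36.2) in non-pregnant ovaries; its log2 fold change of -1.49 ± 1.18 was 0.35 without anestrus replicate 1.

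A steroid enzyme usually associated with the adrenal cortex was among the clearest differences. CYP21 (ENSBTAG00000001443), a 21-hydroxylase that turns progesterone into a corticoid precursor, had 7.43, 12.6 and 4.77 CPM in pregnancy, against 2.35, 2.90 and 0.843 CPM in estrus and 0.265, 0 and 0.161 CPM in anestrus. The 3 stages did not overlap, in the order pregnancy, estrus, anestrus, although pregnancy replicate 3 rests on 8 counts and the anestrus libraries on 4, 0 and 2. The log2 fold change was 3.98 ± 0.63 (edgeR adjusted p = 0.254; DESeq2 adjusted p = 1.55e-06), with 2.02 ± 0.72 against estrus and 5.94 ± 0.90 against anestrus. The symbol may rest on sequence similarity. It is carried by 2 identifiers, between which reads of near-identical copies could be split. The second identifier did not pass the filter and overlapped, with 5.73, 40.6 and 0 CPM in pregnancy and 0 to 0.968 CPM in non-pregnant ovaries. Summed over both, a sum chosen after seeing the data, levels were 13.2, 53.2 and 4.77 CPM in pregnancy and 0.161 to 3.87 CPM in non-pregnant ovaries, still without overlap. In pregnancy replicate 3 the sum rests on the same 8 counts. The adrenal markers CYP11B1, which makes cortisol, and MC2R, the corticotropin receptor, had 0 counts in every library.

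Over the 29 tested genes of the luteal and progesterone list, 0 passed edgeR's test, 21 had a positive and 8 a negative log2 fold change, and the median was 0.26, beside 0.01 over all genes. Outside the non-pregnant range lay 4 members, all above it (13.8% of the list, beside 1.84% of all genes): HSD3B1, STAR, PRLR and the hormone-sensitive lipase LIPE, the last named after its values were seen. The list median stayed positive in all 21 alternative analyses, between 0.13 and 0.56. Of 24 cholesterol synthesis genes, 17 had positive values with a median of 0.09, which was -0.02 without estrus replicate 3. SREBF2, the transcription factor that switches this pathway on, was the only member outside the range (4.17%, beside 1.84% of all genes above it). It had 137, 130.2 and 139 CPM in pregnancy and 87 to 118 CPM (median 88.4) in non-pregnant ovaries (0.54 ± 0.15, edgeR adjusted p = 0.693).

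**Figure D2:**
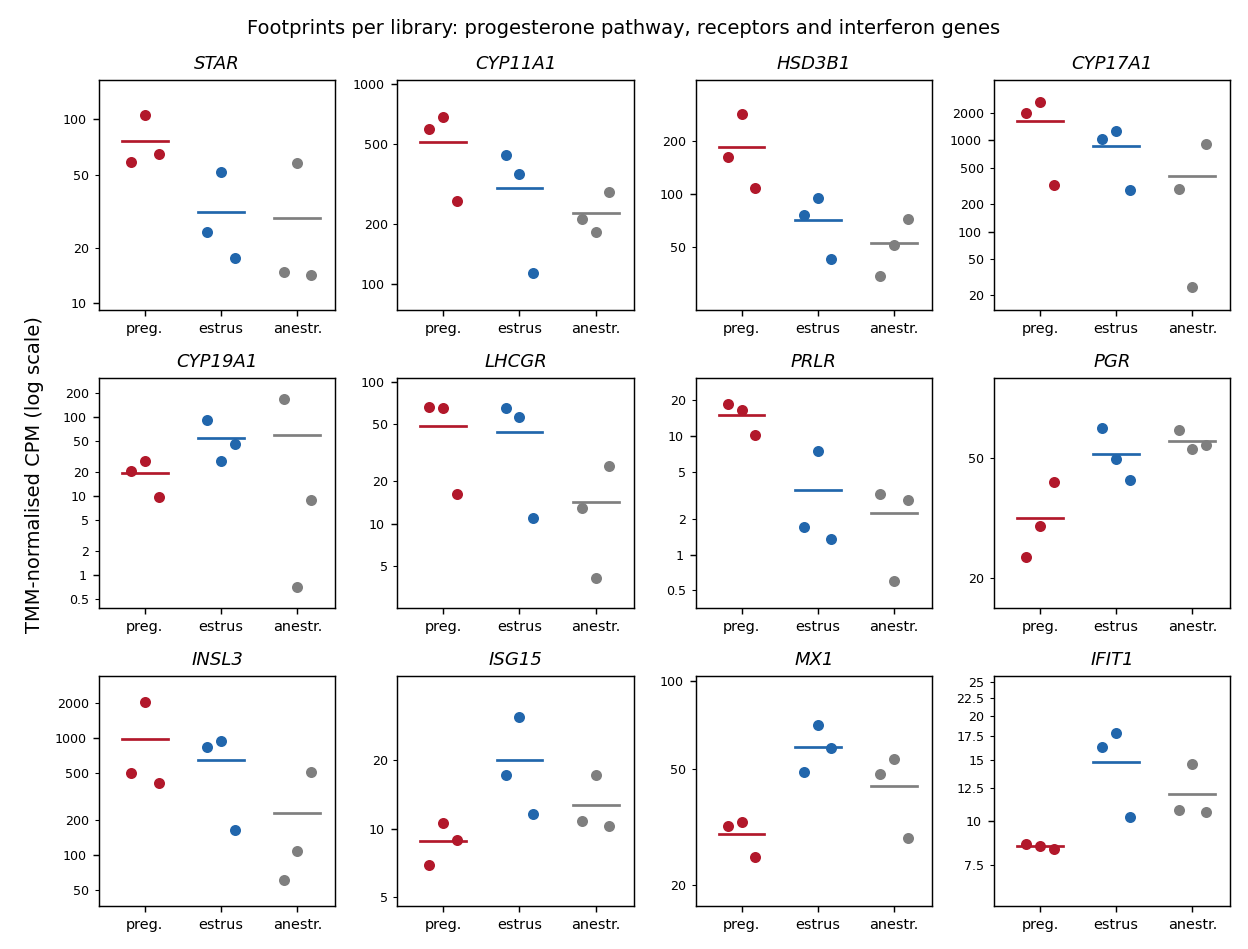
TMM-normalised CPM (log scale) of 12 hormone and interferon genes in each library, by stage; points are libraries and bars are stage means (n = 3). All pregnancy points lie above all others for STAR, HSD3B1 and PRLR and below all others for PGR and IFIT1, while the remaining genes overlap.

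Among hormone receptors the prolactin receptor was higher and the progesterone receptor lower in pregnancy. PRLR (ENSBTAG00000025035), which receives the luteotropic signals prolactin and, in pregnancy, placental lactogen, had 18.6, 16.5 and 10.1 CPM in pregnancy, against 1.72, 7.45 and 1.35 CPM in estrus and 3.24, 0.593 and 2.90 CPM in anestrus. No pregnancy library overlapped the others, of which estrus replicate 2 was the nearest. The log2 fold change was 2.43 ± 0.58 (edgeR adjusted p = 0.693; DESeq2 adjusted p = 0.0444), and it ran from 2.19 to 3.04 as each library was left out. PGR (ENSBTAG00000024648), the nuclear receptor through which progesterone acts, stood at 23.5, 29.7 and 41.7 CPM in pregnancy, against 62.6, 49.6 and 42.2 CPM in estrus and 61.9, 53.3 and 55 CPM in anestrus. Pregnancy replicate 3 was only just below estrus replicate 3, and the log2 fold change was -0.80 ± 0.22 (edgeR adjusted p = 0.693).

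Other receptors overlapped between the groups. LHCGR, the receptor of luteinising hormone, had 66.1, 65 and 16.1 CPM in pregnancy, against 64.8, 56.3 and 11 CPM in estrus and 13, 4.11 and 25.6 CPM in anestrus. Its log2 fold change was 0.18 ± 0.74 against estrus and 1.83 ± 0.76 against anestrus, with a mean of 1.01 ± 0.62 over both stages. PTGFR, the prostaglandin F receptor that starts luteal regression, was at 10.6, 16.9 and 48.3 CPM in pregnancy and 9.61 to 27.2 CPM (median 14.7) in non-pregnant ovaries, and its log2 fold change of 0.57 ± 0.43 was -0.24 without pregnancy replicate 3. FSHR, the receptor of follicle-stimulating hormone, gave 0.63 ± 0.73, and the membrane progesterone-binding protein PGRMC1 0.39 ± 0.25. Oxytocin, OXT, a luteal peptide in ruminants, had 0.318, 3.05 and 1.79 CPM in pregnancy and 0.337 to 25.9 CPM (median 2.41) in non-pregnant ovaries, while its receptor OXTR did not pass the filter on low counts.

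Of the genes of luteolysis, the regression of the corpus luteum, 20 of 27 had negative values, with a median of -0.37, and 0 passed edgeR's test. Once log2 library size entered the model the median was 0.09, and without anestrus replicate 2 and pregnancy replicate 3 it was -0.08, so this shift moved with depth and with those libraries, whose part in it was not tested. The only member outside the range (3.7%, beside 1.84% of all genes above it) was BCL2L1, an inhibitor of apoptosis. It was higher in pregnancy at 20.6, 21.5 and 19.1 CPM, against 8.23 to 16.9 CPM (median 12.4) in non-pregnant ovaries (0.76 ± 0.18, edgeR adjusted p = 0.693). Of the other members with the smallest p, EDNRB, an endothelin receptor, gave -0.67 ± 0.30, the chemokine CCL2 -1.51 ± 0.68 and the prostaglandin E synthase PTGES3 -0.37 ± 0.17.

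The largest fold changes among the 12 higher genes with the smallest p were those of FGG and FABP6. FGG (ENSBTAG00000006745), the gamma chain of fibrinogen, the clotting protein made by liver, had 21.9, 150.1 and 201 CPM in pregnancy, against 0.470, 0.290 and 2.53 CPM in estrus and 0.728, 5.22 and 0.322 CPM in anestrus. Every pregnancy library was above every other, and pregnancy replicate 1 was well below replicates 2 and 3. The log2 fold change was 6.35 ± 0.87 (edgeR adjusted p = 0.144; DESeq2 adjusted p = 3.03e-05), with 6.94 ± 1.24 against estrus and 5.77 ± 1.10 against anestrus.

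Other fibrinogen chains and albumin were at or near 0. The fibrinogen alpha chain FGA had 0 counts in all 9 libraries, the beta chain FGB had 28 and albumin (ALB) 11 over all libraries together. APOA1, the main protein of high-density lipoprotein, had 2263, 3596 and 1135 CPM in pregnancy and 361 to 1621 CPM (median 776) in non-pregnant ovaries, with pregnancy replicate 3 inside that range (1.47 ± 0.49, edgeR adjusted p = 0.693). The retinol carrier RBP4 gave 0.04 ± 0.21 and prothrombin, F2, -0.72 ± 0.89. Only 5 of 21 matched members of the liver list passed the filter, and their median of 0.04 was unstable, at -0.02 without estrus replicate 3 and 0.76 under a stricter filter.

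FABP6 (ENSBTAG00000010632), known as the bile acid binding protein of the ileum, had the smallest p. Its level was 4.14, 12.2 and 7.15 CPM in pregnancy, against 0.313, 0.484 and 1.18 CPM in estrus and 0.132, 0.158 and 0 CPM in anestrus. These are 39, 60 and 12 counts in pregnancy, 2, 5 and 7 in estrus and 2, 4 and 0 in anestrus, so the gene was near the floor outside pregnancy. The groups did not overlap, and the log2 fold change was 4.80 ± 0.61 (edgeR adjusted p = 0.137; DESeq2 adjusted p = 2.17e-09), with 3.58 ± 0.75 against estrus and 6.03 ± 0.84 against anestrus. NR1H4, the bile acid receptor, was at 10.1, 10.8 and 17.3 CPM in pregnancy and 2.29 to 10.2 CPM (median 6.44) in non-pregnant ovaries (0.99 ± 0.37). The adipocyte and skin relatives FABP4 and FABP5 ran the other way, with -1.42 ± 0.76 and -0.70 ± 0.27, and none of these passed edgeR's test.

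LCN2 (ENSBTAG00000014149), a lipocalin that binds iron-carrying siderophores, had 5.84, 5.69 and 10.7 CPM in pregnancy and 0.337 to 1.72 CPM (median 1.12) in non-pregnant ovaries. Its log2 fold change was 2.74 ± 0.51 (edgeR adjusted p = 0.575; DESeq2 adjusted p = 0.000439). C4BPA (ENSBTAG00000009876), the alpha chain of a complement inhibitor, had 24.3, 31.5 and 63.2 CPM in pregnancy, against 15.2, 6.49 and 4.05 CPM in estrus and 11.1, 6.56 and 4.27 CPM in anestrus. Pregnancy lay above all 6 for both genes, and C4BPA gave 2.29 ± 0.44 (edgeR adjusted p = 0.637; DESeq2 adjusted p = 0.00106).

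Another 6 genes completed the 12 higher ones with the smallest p, all outside the range by construction of the choice. ZDHHC2, a palmitoyltransferase, and POGK, a KRAB-domain protein, were the most even: ZDHHC2 had 50.9, 49 and 54.3 CPM in pregnancy and 14.2 to 44.2 CPM (median 25.8) in non-pregnant ovaries (0.95 ± 0.22), and POGK had 34.1, 36.6 and 30.4 CPM in pregnancy and 15.2 to 28.2 CPM (median 19.2) in non-pregnant ovaries (0.74 ± 0.17). SHISA2, an inhibitor of Wnt and FGF receptor maturation, was at 7.85, 5.69 and 6.56 CPM in pregnancy, against 0.783, 1.65 and 1.01 CPM in estrus and 4.17, 4.98 and 3.39 CPM in anestrus. Its distance was larger from estrus (2.51 ± 0.43) than from anestrus (0.68 ± 0.39), a difference between stages that was not tested. FBXL7, an F-box protein of ubiquitin ligases, had 16.7 ± 2.09 CPM in pregnancy and 7.92 ± 1.95 CPM in non-pregnant ovaries (SD, n = 3 and n = 6; 1.09 ± 0.22). BAIAP2L1, which links membranes to actin, had 13.7 ± 5.99 CPM in pregnancy and 4.77 ± 1.02 CPM in non-pregnant ovaries (1.48 ± 0.31). The gene with the symbol Egfem1 had 13.9 ± 6.94 CPM in pregnancy and 5.25 ± 0.963 CPM in non-pregnant ovaries (1.45 ± 0.32). All 6 had edgeR adjusted p between 0.637 and 0.693, and DESeq2 called 4, BAIAP2L1 (0.0281), FBXL7 (0.0378), Egfem1 (0.0385) and SHISA2 (0.0391, adjusted p).

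**Figure D3:**
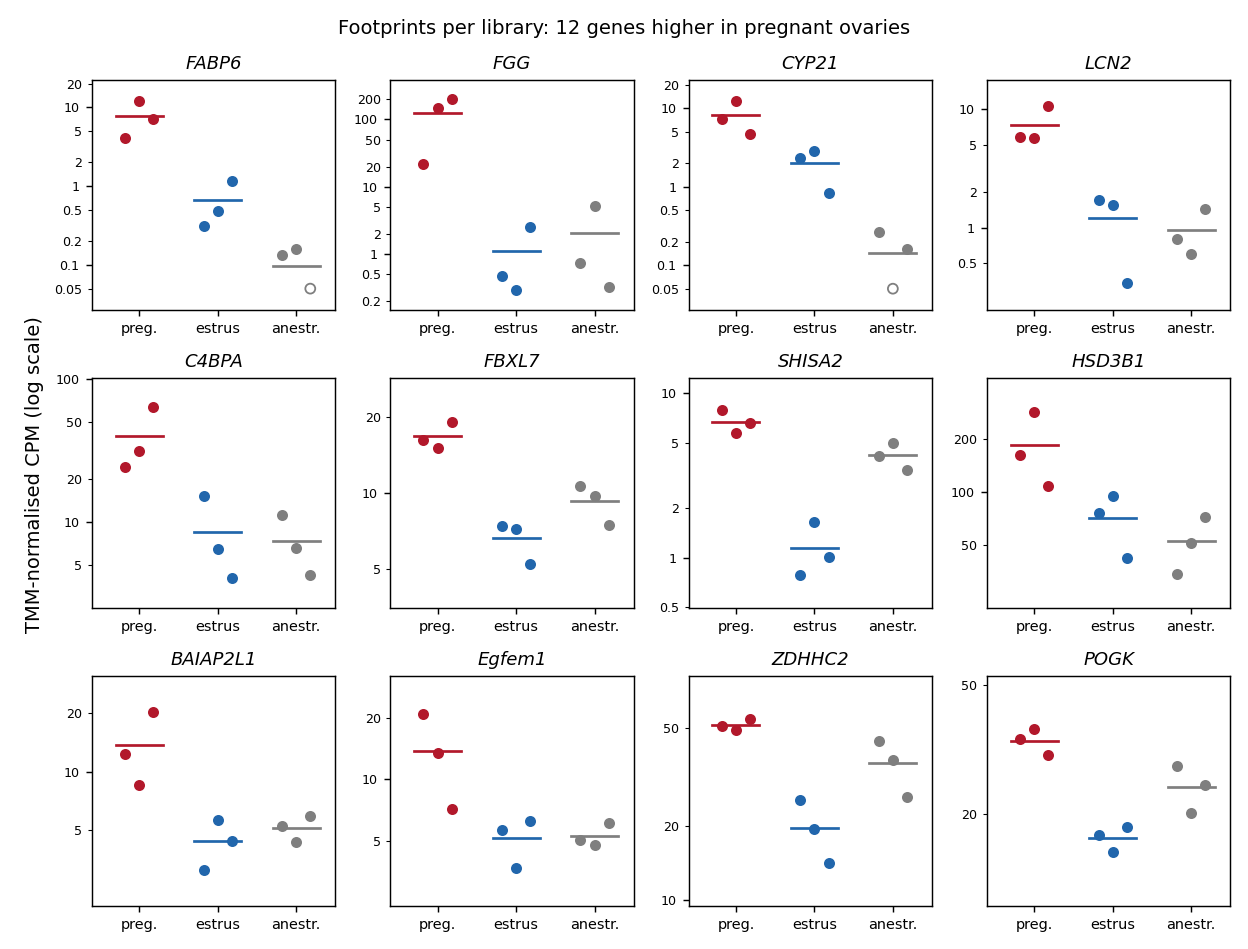
TMM-normalised CPM (log scale) in each library of the 12 genes higher in pregnancy with the smallest p; points are libraries, bars are stage means (n = 3) and open circles are libraries at 0 drawn at the axis floor. FGG and FABP6 show the widest gap between pregnancy and the other stages, while for SHISA2, ZDHHC2 and POGK anestrus lies nearer to pregnancy than estrus does.

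Among the 12 lower genes the log2 fold changes ran from -2.35 in KCNG1 to -0.63 in SLC25A24. TPPP3 (ENSBTAG00000019822), a microtubule-binding protein, had the smallest p among them, with 6.26, 6.91 and 5.37 CPM in pregnancy, against 14.2, 15.4 and 9.78 CPM in estrus and 20.5, 21.2 and 20.3 CPM in anestrus. The groups did not overlap and libraries of one stage lay close together. The log2 fold change was -1.40 ± 0.23 (edgeR adjusted p = 0.284; DESeq2 adjusted p = 0.000892), and as each library was left out it ran from -1.48 to -1.33.

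Regulators of the actin skeleton were among the 12. RND3 (ENSBTAG00000039731), an atypical small GTPase that relaxes actin fibres, stood at 24.5, 21.7 and 14.9 CPM in pregnancy, against 39.5, 75.1 and 75 CPM in estrus and 36.7, 72.6 and 62.1 CPM in anestrus, and the groups did not overlap (-1.53 ± 0.31, edgeR adjusted p = 0.637; DESeq2 adjusted p = 0.00215). ARHGEF3, a guanine nucleotide exchange factor of small GTPases, had 12.8, 15.6 and 14.9 CPM in pregnancy and 19.3 to 84.2 CPM (median 36.5) in non-pregnant ovaries (-1.35 ± 0.34, edgeR adjusted p = 0.693). PMEL (ENSBTAG00000004019), known as the fibril protein of melanosomes, had 11.8, 14.6 and 6.56 CPM in pregnancy, against 70.5, 48.5 and 19.1 CPM in estrus and 44.4, 58.1 and 34.7 CPM in anestrus. Its log2 fold change of -2.01 ± 0.42 was alike against estrus (-2.01 ± 0.45) and anestrus (-2.0 ± 0.45), with edgeR adjusted p = 0.637 and DESeq2 adjusted p = 0.000974.

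Secreted growth regulators among the 12 were IGF1 and CHRDL2. IGF1 (ENSBTAG00000011082), insulin-like growth factor 1, which supports follicle growth and steroid synthesis, had 41.8, 33.1 and 75.7 CPM in pregnancy, against 106, 90.9 and 108 CPM in estrus and 189, 265 and 86.3 CPM in anestrus. Pregnancy was below all 6, though replicate 3 was near anestrus replicate 3, and the log2 fold change was -1.45 ± 0.37 (edgeR adjusted p = 0.693; DESeq2 adjusted p = 0.0412). CHRDL2, a secreted antagonist of bone morphogenetic proteins, had 1.80, 3.25 and 4.77 CPM in pregnancy and 5.64 to 25.1 CPM (median 11.8) in non-pregnant ovaries (-2.09 ± 0.50; DESeq2 adjusted p = 0.0251).

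Of the remaining 6, PCDH11X, a protocadherin, had 2.97, 3.66 and 2.38 CPM in pregnancy and 6.20 to 11.7 CPM (median 9.40) in non-pregnant ovaries (-1.58 ± 0.31). PLBD1, a lysosomal phospholipase-like protein, had 3.61, 8.53 and 2.98 CPM in pregnancy, against 18.6, 25.7 and 20.1 CPM in estrus and 10.8, 11.4 and 12.6 CPM in anestrus (-1.60 ± 0.33). KCNG1, a potassium channel subunit, had 1.06, 3.45 and 3.58 CPM in pregnancy and 5.73 to 23 CPM (median 12.5) in non-pregnant ovaries (-2.35 ± 0.54). DESeq2 called all 3, with adjusted p of 0.0180 for PCDH11X, 0.00535 for PLBD1 and 0.0109 for KCNG1, and in pregnancy replicate 3 they rest on 4, 5 and 6 counts. RGS1, which dampens G-protein signalling in lymphocytes, gave -1.85 ± 0.44 and rests on 22, 7 and 1 counts in pregnancy replicates 1 to 3. VAT1L gave -1.10 ± 0.27 and SLC25A24, the ATP-Mg carrier of mitochondria, -0.63 ± 0.16. The edgeR adjusted p was 0.693 for RGS1, VAT1L and SLC25A24. Of these 3, SLC25A24 had the smallest spread, with 34.7, 36 and 38.2 CPM in pregnancy and 47 to 61.2 CPM (median 58.3) in non-pregnant ovaries.

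**Figure D4:**
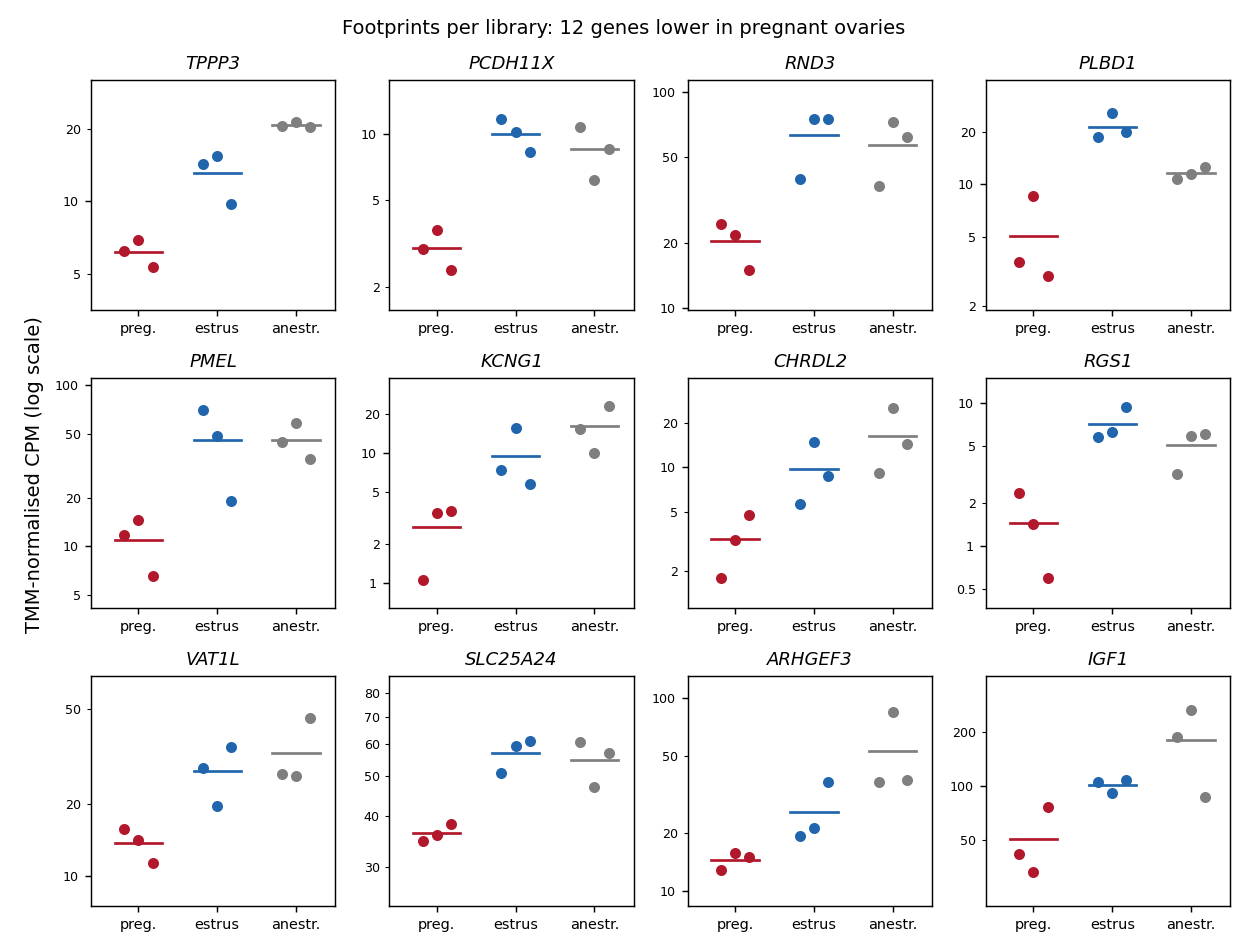
TMM-normalised CPM (log scale) in each library of the 12 genes lower in pregnancy with the smallest p; points are libraries and bars are stage means (n = 3). All pregnancy points lie below all others in each panel, by a wider margin for PCDH11X, KCNG1 and RND3 than for IGF1 and CHRDL2.

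Most interferon-stimulated genes had lower values in pregnant ovaries. IFIT1, an antiviral protein that binds foreign RNA, had 8.60, 8.53 and 8.35 CPM in pregnancy and 10.3 to 17.9 CPM (median 12.7) in non-pregnant ovaries, so that all pregnancy libraries lay below all others (-0.65 ± 0.25, edgeR adjusted p = 0.693). ISG15, a ubiquitin-like modifier used in cattle as a blood marker of early pregnancy, had 6.90, 10.6 and 8.94 CPM in pregnancy, against 17.2, 31.2 and 11.6 CPM in estrus and 10.8, 17.2 and 10.2 CPM in anestrus. Pregnancy replicate 2 overlapped anestrus replicate 3 only, and the log2 fold change was -0.88 ± 0.35 (edgeR adjusted p = 0.693). The antiviral GTPase MX1 had 31.9, 32.9 and 25 CPM in pregnancy and 28.9 to 70.7 CPM (median 51.3) in non-pregnant ovaries (-0.75 ± 0.23), whereas its relative MX2 had a mean of 3.58 ± 0.285 CPM in pregnancy and 3.55 ± 1.54 CPM in non-pregnant ovaries (SD, n = 3 and n = 6).

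Over 34 tested members of the interferon list, 0 passed edgeR's test, 27 had negative values and the median was -0.32. Outside the range lay 4 (11.8%, beside 1.99% of all genes), all below it: IFIT1, HERC5, which attaches ISG15 (-0.86 ± 0.31), EIF2AK2, the RNA-sensing kinase (-0.59 ± 0.19), and IFIT5, named after its values were seen. In the 21 alternative analyses the median ran from -0.43 to -0.18.

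Cell cycle genes mostly had negative values, 38 of 42, with a median of -0.58 and 0 past edgeR's test. Members below the non-pregnant range numbered 5 (11.9%, beside 1.99% of all genes): thymidine kinase TK1, the replication clamp PCNA, CCND1, CDK2 and AURKA, the last 3 named after their values were seen. PCNA had 85.8, 74.4 and 72.7 CPM in pregnancy and 95.8 to 143 CPM (median 117) in non-pregnant ovaries (-0.58 ± 0.19). TK1 had 12.4, 16 and 7.75 CPM in pregnancy and 16.2 to 34.1 CPM (median 19.7) in non-pregnant ovaries (-0.80 ± 0.25). CCND2, the cyclin of proliferating granulosa cells, gave -0.63 ± 0.20 and RRM1, which supplies deoxynucleotides, -0.54 ± 0.20. The list's mean deviation from the 9-library mean, in log2 CPM, was -0.06, 0.03 and -1.14 in pregnancy replicates 1 to 3 and -0.25 to 0.75 in non-pregnant libraries, so replicate 3 was the lowest of all. Without that replicate the median was -0.35, and with log2 library size in the model it was -0.05; the part of depth in this shift was not tested.

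Follicular genes did not set pregnancy apart as a group. The 24 granulosa markers had 14 positive and 10 negative values (median 0.08), and the median was -0.49 without pregnancy replicate 2 and 0.33 without replicate 3. AMH, made by granulosa cells of small follicles, had 84.6, 251 and 66.2 CPM in pregnancy and 4.03 to 163 CPM (median 60.7) in non-pregnant ovaries. INHA, the inhibin alpha subunit, had 488, 1172 and 254 CPM in pregnancy and 142 to 1508 CPM (median 514) in non-pregnant ovaries, and INHBA, the beta A subunit of inhibin and activin, had 209.7, 483 and 200.3 CPM in pregnancy and 144 to 1744 CPM (median 433) in non-pregnant ovaries. All 3 overlapped, with log2 fold changes of 1.02 ± 0.72 for AMH, 0.19 ± 0.65 for INHA and -1.27 ± 0.86 for INHBA. Without pregnancy replicate 2 AMH gave 0.19 and INHA -0.60, and without anestrus replicate 1 INHBA gave -0.27. The granulosa regulators FOXL2 (0.10 ± 0.38) and NR5A2 (0.10 ± 0.50) were near 0, with signs that turned in some alternatives. AMHR2, the receptor of AMH, gave 0.74 ± 0.32, and 0.20 without pregnancy replicate 3, where it was highest. BMPR1B, a receptor of oocyte growth factors, gave 0.39 ± 0.25, and the gap junction protein GJA1 -0.73 ± 0.44.

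TNFAIP6 (ENSBTAG00000007239), which builds the hyaluronan matrix around the ovulating oocyte, was the exception among granulosa genes. It had 0, 2 and 0 counts in pregnancy, against 6.42, 1.45 and 3.04 CPM in estrus and 15.6, 187 and 4.60 CPM in anestrus, and all pregnancy libraries lay below all others. No other granulosa marker lay outside the range (4.17%, beside 1.99% of all genes below it). Estrus replicate 2, at 1.45 CPM, was under the 1.79 CPM that 3 counts equal in pregnancy replicate 3. The 0 counts of pregnancy replicate 3 therefore do not resolve a difference from estrus replicate 2. From 2 counts in pregnancy and 5108 in non-pregnant ovaries, pooled over libraries, the ratio of pregnancy over non-pregnant was 0.00184. Its 95% exact interval of 0.000223 to 0.00666 covers counting error only and leaves out the spread between libraries. Without anestrus replicate 2, which held most of these counts, the ratio was 0.0171 (0.00206 to 0.0622). With libraries as the units, the log2 fold change was -6.81 ± 1.89 (edgeR adjusted p = 0.693; DESeq2 adjusted p = 0.0242). That is a ratio of 0.00894, above the pooled interval over all libraries.

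Of the theca markers 11 of 12 had positive values, with a median of 0.74 that ran from 0.41, without pregnancy replicate 2, to 1.16, with log2 library size in the model. STAR was the only member outside the range (8.33%, beside 1.84% of all genes above it), and 0 passed edgeR's test. COLEC11, a collectin, had 35.1, 62.6 and 6.56 CPM in pregnancy and 3.68 to 21.6 CPM (median 13.4) in non-pregnant ovaries (1.51 ± 0.64). FDX1, the electron donor of CYP11A1, gave 0.81 ± 0.43 and PTCH1, the hedgehog receptor, 0.67 ± 0.35. For these 3 genes pregnancy replicate 3 was inside the non-pregnant range. Oocyte genes were too low to compare: 4 of 22 matched genes passed the filter, with ZP2, a protein of the zona pellucida, at 0.212, 2.44 and 0.596 CPM in pregnancy and 0.674 to 4.65 CPM (median 2.60) in non-pregnant ovaries.

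Stromal lists had mostly negative values, though 0 of their members passed edgeR's test and the libraries' mean levels overlapped between the groups. Of 30 collagens and other matrix proteins, 24 had negative values (median -0.35), and 3, COL6A3, FBN1 and LAMA4, lay below the range (10%, beside 1.99% of all genes). COL6A3, a chain of the microfibrillar collagen VI, had 2195, 2745 and 1949.6 CPM in pregnancy and 2813 to 10459 CPM (median 4904) in non-pregnant ovaries (-1.23 ± 0.37), fibrillin FBN1 gave -0.69 ± 0.23, the laminin chain LAMA4 -0.70 ± 0.25 and elastin, ELN, -1.12 ± 0.39. In smooth muscle and pericytes 17 of 19 genes were negative (median -0.28), and 2 lay below the range (10.5%, beside 1.99% of all genes): the smooth muscle actin ACTG2 (441, 477 and 346 CPM in pregnancy and 529 to 1068 CPM (median 729) in non-pregnant ovaries) and tropomyosin TPM2 (-0.55 ± 0.22). Calponin, CNN1, gave -0.87 ± 0.31 and the adhesion molecule MCAM -0.42 ± 0.19. Once log2 library size entered the model the matrix median was 0.01 and the smooth muscle median -0.41. RELN, a secreted glycoprotein found in theca, gave -0.56 ± 0.33, with 125, 73.1 and 80.5 CPM in pregnancy and 80.7 to 203 CPM (median 137) in non-pregnant ovaries.

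Vascular genes were mixed. Endothelial markers had 14 of 22 negative values and a median of -0.32, which was 0.04 with log2 library size in the model. CLDN5, a tight junction protein, gave 0.70 ± 0.28 and KDR, the main receptor of VEGF, -0.43 ± 0.19. Angiogenesis genes had a median of 0.00. EPAS1, the hypoxia factor HIF-2 alpha, was the only member below the range (3.7%, beside 1.99% of all genes). It had 28.6, 29.7 and 30.4 CPM in pregnancy and 35.6 to 102 CPM (median 40.2) in non-pregnant ovaries (-0.73 ± 0.27). VEGFA, which drives luteal vessel growth, had 4.78, 4.67 and 5.96 CPM in pregnancy and 2.61 to 9.03 CPM (median 6.44) in non-pregnant ovaries (-0.27 ± 0.36).

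Immune cell lists had medians near that of all genes: 0.11 for 20 macrophage genes, 0.16 for 19 T and NK cell genes and 0.14 for 13 B and plasma cell genes, each with a sign that turned in some alternatives. CD74, the class II invariant chain, was the only macrophage gene below the range (5%, beside 1.99% of all genes). It had 1154, 765 and 1102 CPM in pregnancy and 1275 to 1539.5 CPM (median 1335) in non-pregnant ovaries (-0.44 ± 0.20). The scavenger receptor CD163 had 434, 237 and 238 CPM in pregnancy and 100.4 to 298 CPM (median 126) in non-pregnant ovaries (0.81 ± 0.41), and lysozyme, LYZ, gave -0.77 ± 0.31. The plasma cell receptor TNFRSF17 gave 1.73 ± 0.69, IGHM, the heavy chain of IgM, -1.16 ± 0.48 and granzyme A, GZMA, 1.15 ± 0.61, all overlapping between the groups. CD3E, part of the T cell receptor complex, had 17.4, 10.4 and 39.9 CPM in pregnancy and 10.2 to 20.4 CPM (median 14.4) in non-pregnant ovaries, highest in pregnancy replicate 3, and the T and NK median was -0.06 without that library.

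Lists of protein synthesis and stress had mostly negative values, and 0 of their members passed edgeR's test. Ribosomal protein genes had 76 of 77 negative values (median -0.33) and translation factors 41 of 42 (median -0.30), and with library size as a covariate these medians were -0.07 and -0.06. Without anestrus replicate 2 they were -0.18 and -0.22. The ribosomal list's mean deviation, in log2 CPM, was -0.29 to -0.16 in pregnancy, -0.42 to 0.05 in estrus and 0.28, 0.83 and -0.08 in anestrus. The part of depth and of anestrus replicate 2 in these shifts was not tested. The ribosomal median was -0.06 against estrus and -0.60 against anestrus, which share the pregnancy libraries. RPS4X, at 152, 117 and 145 CPM in pregnancy and 153 to 324 CPM (median 182) in non-pregnant ovaries, was 1 of 5 ribosomal genes below the range (6.49%, beside 1.99% of all genes), the others being RPSA, RPS2, RPS9 and RPL9, and EIF2B3 and EIF3M were the 2 translation factors below it (4.76%). Nuclear-encoded oxidative phosphorylation genes had 58 of 68 negative values (median -0.16), and this median was -0.05 without pregnancy replicate 3 and 0.09 with the covariate. NDUFA9 alone lay below the range (-0.34 ± 0.15), 1.47% of the list beside 1.99% of all genes. Immediate early and heat shock genes had 23 of 28 negative (median -0.47, which was -0.91 without pregnancy replicate 3 and -1.17 with the covariate). The chaperones HSPA8 (-0.65 ± 0.25) and HSPH1 (-0.54 ± 0.20) lay below the range (7.14%, beside 1.99% of all genes), and the phosphatase DUSP1 gave -1.47 ± 0.49.

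**Figure D5:**
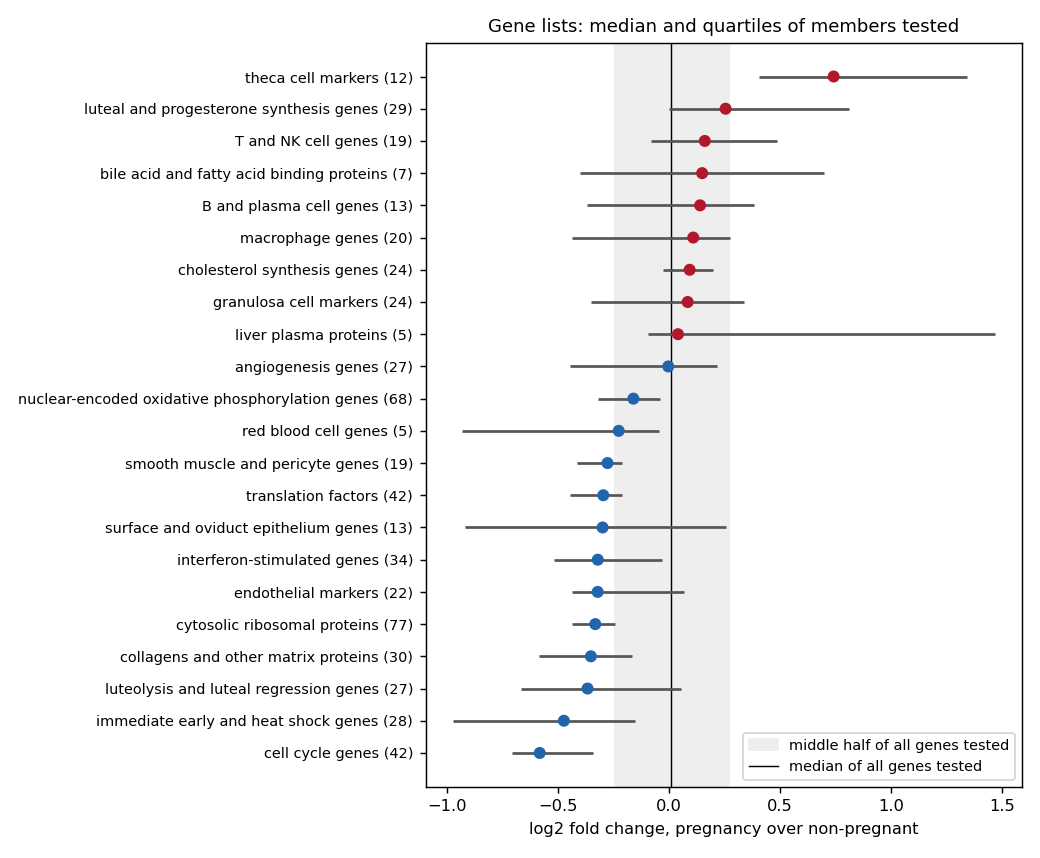
Median (point) and quartiles (line) of the log2 fold change of pregnancy over non-pregnant in each list with 5 or more tested members, whose number is in brackets; the grey band is the quartile range of all 13936 genes and the vertical line their median. Theca markers have the highest median (0.74) and cell cycle genes the lowest (-0.58).

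Markers of other tissues that could be carried along were measured beside these genes. Red blood cell genes had a median of -0.23 over 5 members, which was -0.65 without pregnancy replicate 2 and -0.04 without anestrus replicate 2, with HBB at 1.91, 1.02 and 5.96 CPM in pregnancy and 0.474 to 10.8 CPM (median 1.80) in non-pregnant ovaries. Surface and oviduct epithelium genes had a median of -0.30 over 13, which was -0.07 without anestrus replicate 1, with the keratin KRT8 at -0.92 ± 0.34. OVGP1, the oviduct glycoprotein, was at 3.08, 6.70 and 5.96 CPM in pregnancy, against 5.17, 0 and 1.52 CPM in estrus and 53.8, 77.7 and 18.4 CPM in anestrus. Placental genes, summed over 52 identifiers, were at 0.212, 0.813 and 4.77 CPM in pregnancy (14 counts in all) and 0.169 to 4.23 CPM in non-pregnant libraries (75 counts), highest in pregnancy replicate 3 on 8 counts, and 0 of the identifiers passed the filter. Their part in any result above was not tested.

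The 28 genes called by DESeq2 included 8 not named above, which fall outside the rule for named genes and were chosen after their values were seen. Higher in pregnancy was ACSM1, a fatty acid-CoA ligase, at 2.23, 5.08 and 2.98 CPM in pregnancy and 0 to 0.337 CPM (median 0.218) in non-pregnant ovaries. VTCN1, an inhibitor of T cells, was at 3.71, 5.49 and 5.37 CPM in pregnancy and 0 to 1.25 CPM (median 0.353) in non-pregnant ovaries. The kinase anchor AKAP5 was at 13.8, 20.1 and 7.75 CPM in pregnancy and 1.03 to 5.81 CPM (median 3.55) in non-pregnant ovaries. ABCC4, an exporter of cyclic AMP and prostaglandins, had 2.33, 3.86 and 8.94 CPM in pregnancy and 0.237 to 1.92 CPM (median 0.439) in non-pregnant ovaries, so that these 4 genes lay above the range. Lower was DUSP4, a phosphatase of MAP kinases, at 0.955, 1.63 and 0 CPM in pregnancy and 2.61 to 21.4 CPM (median 5.27) in non-pregnant ovaries. CD1A, which presents lipid antigens, was at 1.06, 0.813 and 1.19 CPM in pregnancy and 2.82 to 8.13 CPM (median 4.24) in non-pregnant ovaries, and both were below the range. The genes with the symbols CFDP2 (ENSBTAG00000050567) and L1RE1 (ENSBTAG00000050903), of which L1RE1 names a LINE-1 element whose copies can share reads, had 0 counts in all pregnancy libraries. CFDP2 was at 0.806 to 10.9 CPM (median 2.04) in non-pregnant ovaries. Anestrus replicates 2 and 3 and estrus replicate 2 were at 1.54, 0.806 and 1.45 CPM. These are under the 1.79 CPM that 3 counts equal in pregnancy replicate 3, whose 0 counts do not resolve a difference from them. L1RE1 had counts in 3 of the 6, with 216 in estrus replicate 1, 45 in anestrus replicate 1 and 69 in anestrus replicate 3. With the other non-pregnant libraries at 0, L1RE1 overlapped between the groups (edgeR adjusted p = 0.693).

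In the authors' deposited table of pregnancy against estrus 23 genes had an FDR under 0.05, and in their table of pregnancy against anestrus 36 did. Listed in both of the authors' deposited tables were 6 genes: FGG, FABP6, C4BPA, PMEL, RND3 and CFDP2. The 2 tables share the pregnancy libraries.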

How the data were processed

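Per the labels' protocols, ribosome-protected fragments were isolated from frozen ovary, cleared of ribosomal RNA with probes and RNase H, and sequenced on the Illumina HiSeq X10 platform. Bowtie2 and RSEM were used, per the submitters' processing notes. The sources used here give neither their versions nor a genome build. The deposited tables hold whole-number counts per gene and library, FPKM that the authors derived from them, and the authors' own log2 fold changes, p-values and FDR for pairs of stages, whose test is not stated.

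The 3 tables, joined by gene, covered 21652 genes. All libraries were at 0 for 3563 of these, and 657 lacked a symbol. Counts were analysed with edgeR 4.0.16 in R 4.3.3 (filterByExpr by stage, TMM factors from 0.876 to 1.144, quasi-likelihood F test, Benjamini-Hochberg adjustment over all genes) on a model with a mean per stage. Pregnancy was contrasted with the average of estrus and anestrus. The 13936 genes tested held 99.9% of the counts. The biological coefficient of variation came to 34.5%. Depth per library is given above; intervals cover counting error only, since reads without molecular identifiers are not independent molecules. FPKM served only to compare levels between genes.

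Named genes were the 12 higher and 12 lower with the smallest p, restricted to genes that had a symbol, lay outside the non-pregnant range and reached 5 CPM in the group where they were higher. To these came a core list of 28 genes whatever their result and up to 4 members per other list by smallest p. The list members outside the range that this left out were chosen after their values were seen. The 26 lists had 727 entries, of which 699 matched a gene and 619 were tested. Members, lists and tests were chosen with earlier results of these data known.

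Alternatives were DESeq2 1.42.0, limma-voom (limma 3.58.1) with quality weights, a fit of 2 groups, other scalings and filters, a covariate for log2 library size, a robust prior, a replicate block and leaving out each library. A gene called in 1 alternative is not reported here. The procedure was tested on simulated data.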

Additional observations from a re-analysis of the deposited data

Results flagged for a closer look

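On a scale of log2(CPM + 1), 49 groups of libraries were examined for a single library far from the rest. Only 1 was flagged, fewer than the 1 in 20 groups that chance alone would give. For VEGFA in the 6 non-pregnant libraries, estrus replicate 2 was the lowest at 2.61 CPM, while the other 5 lay between 5.90 and 9.03 CPM.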

How the results depend on the processing

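The count of 0 genes called by edgeR held under other scalings, a stricter filter, a robust prior, a fit of 2 groups, log2 library size as a covariate and limma-voom. DESeq2 called 28 genes, with 29 against estrus and 28 against anestrus. Without a filter on low counts 2 genes were called, FGG and FABP6 (edgeR adjusted p = 0.0298). DESeq2 aside, adjusted p of the 12 higher, the 12 lower and the core genes was 0.108 or more in every alternative except for FABP6 (0.0298 to 0.788) and FGG (0.0298 to 0.726). Leaving out each library gave 0 to 1 calls, also against estrus, the 1 without pregnancy replicate 3.

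Genes above the non-pregnant range numbered 257 in the analysis reported and 468 by library size alone, and genes below it 278 and 130. Leaving out each library gave 309 to 768 above and 354 to 797 below, and leaving out anestrus replicate 2 with pregnancy replicate 3 gave 1010 and 811; fewer libraries have to be separated then. More than 1.5 times the reported count was reached without any 1 pregnancy replicate or anestrus replicate 1, and for genes below also without estrus replicates 1 or 3.

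With a replicate block in the model, 0 genes were called (smallest adjusted p = 0.177), with 1273 at an unadjusted p under 0.05 against 982 without it. The labels do not say that the numbers pair the samples, so no pairing was assumed. Deviations from stage means correlated at -0.03 to 0.26 between same-numbered libraries (median 0.13, 9 pairs) and -0.27 to 0.14 between others (median -0.05, 18 pairs). Same-numbered libraries were thus somewhat more alike by median, and whether the numbers mark pairs was not tested. The sign turned in at least 1 alternative for the core genes PTGFR, OXT, INHA, FSHR, CYP19A1, FOXL2, NR5A2 and MX2 and, of the list members given above, for AMHR2, GJA1, FABP4, F2, HBB, RBP4 and CD3E, and for none of the 12 higher and 12 lower genes. Those 12 and 12 were chosen as outside the range, which by itself all but fixes their sign when a library is left out. The shallow pregnancy replicate 3 limits what can be said of genes under 1.79 CPM.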
